A study of Mus musculus with 4 samples.

Results

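The chemokine genes of the mouse were followed through single cells of the lung that are neither leukocytes nor endothelium. The members were all genes whose symbol is Ccl or Cxcl with a number, together with Cx3cl1 and Xcl1, and the matrix held 44 such rows with 39 different symbols among 31055 features. Of these rows, 37 lie on the reference chromosomes and 7 on unplaced scaffolds, and the latter had no unique molecular identifier (UMI, the tag that marks 1 captured RNA molecule) in any cell. The cells were sorted as CD45neg and CD31neg, which removes most leukocytes and endothelial cells, from lungs of tamoxifen-dosed mice about 8 weeks old. The mice carried 1 Gli1-CreERT2 allele and 1 wild-type allele at Gli1, and 1 mTmG reporter allele and 1 wild-type allele at Rosa26. Tamoxifen lets this Cre act in cells that express Gli1, a hedgehog target gene, and the reporter then changes from membrane tdTomato to membrane EGFP, and every cell comes from such dosed reporter mice, so no comparison with mice lacking Cre or tamoxifen was made. The 4 sample entries share 1 set of labels and 1 matrix whose barcodes carry no sample name. All cells therefore count as 1 sample, no test was made, and the 95% intervals given below (exact Poisson for a level, exact conditional binomial for a ratio, Clopper-Pearson for a share) cover counting error only.

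Chemokines are small secreted proteins that bind receptors on leukocytes and set where those cells move. CXC chemokines of the Cxcl1, Cxcl2, Cxcl3, Cxcl5 and Cxcl15 kind act on neutrophils, Cxcl9 and Cxcl10 are interferon-inducible ligands of Cxcr3, and Cxcl12 is the ligand of Cxcr4 that holds haematopoietic cells in their niches. The monocyte chemoattractants Ccl2 and Ccl7 act on Ccr2, Ccl11 (eotaxin) draws eosinophils through Ccr3, Ccl19 and Ccl21a guide Ccr7-bearing cells, and Cxcl16 and Cx3cl1 are made as membrane-anchored proteins. Some are released all the time by structural cells of a tissue, and others are switched on within hours by inflammatory signals acting through NF-kB or interferon pathways.

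After filtering, 8933 cells with 699 to 77372 UMIs each were kept, and 22 clusters were built without the chemokines, their receptors or the reporter. The named classes were adventitial-like fibroblasts (1717 cells), alveolar-like fibroblasts (1720), peribronchial or myofibroblast-like cells (427), smooth muscle-like cells (179), mesothelial-like cells (209), alveolar type 1-like cells (209), alveolar type 2-like cells (1653), club or secretory-like cells (74) and ciliated-like cells (238). A leukocyte-like cluster of 90 cells had passed the sort and is shown for comparison. A group of 2199 fibroblasts (24.6% of cells, clusters 2, 5 and 6) scored too close between the adventitial and alveolar marker lists and was left without a name, by a margin that was set after the data were examined. Of clusters 17, 19, 20 and 21, with 36 to 75 cells each, 17 mixed markers of alveolar type 2 cells and fibroblasts, 19 was led by endothelial and haemoglobin genes, 20 by cell cycle genes and 21 by cardiac muscle genes. Median depth ran from 3824 UMIs in peribronchial or myofibroblast-like cells to 30096 in club or secretory-like cells, so levels are given as CPM, the UMIs of a gene summed over a class and scaled to the same total in every class. This scale counts captured 3′ ends, so gene length does not enter it.

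Chemokine transcripts of this lung were dominated by a few genes. Among the named classes, Cxcl15, Cxcl14, Cxcl12 and Ccl11 each had 1 clear source. Cxcl1 did not, at 838 CPM in adventitial-like and 484 CPM in smooth muscle-like cells. Cxcl15 alone gave 50.6% of all chemokine UMIs, Cxcl14 15.8%, Cxcl1 10.3%, Cxcl12 6.46% and Ccl11 5.47%. Summed over the family, alveolar type 2-like cells had 7487 CPM, of which Cxcl15 was 97.4%. Adventitial-like fibroblasts had 2879 CPM divided among several genes, with Cxcl1 at 29.1% and Cxcl12 at 23.4%. Alveolar-like fibroblasts had 2661 CPM, of which Cxcl14 was 73.8%. Family totals were lower in peribronchial or myofibroblast-like cells (1122 CPM, led by Cxcl10), smooth muscle-like cells (1054 CPM, led by Cxcl1) and ciliated-like cells (724 CPM, led by Cxcl17), and lowest in mesothelial-like cells (324 CPM). The leukocyte-like cells reached 5316 CPM, led by Ccl6, a chemokine of myeloid cells, which lies between the levels of adventitial-like and alveolar type 2-like cells.

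Of the 44 rows, 21 (47.7%) had at least 30 UMIs over the named non-leukocyte classes and are called measured. Over all 31055 features, 14172 had that many. Of the 21 members, 13 were highest in a mesenchymal class, where 52% of all genes with that many UMIs were, and 8 in an epithelial class, against 48% of all genes. Adventitial-like cells were highest for 5 of the 21 (Cxcl1, Cxcl12, Ccl7, Ccl8 and Ccl11), where they were for 7.42% of all genes. Smooth muscle-like cells were highest for 3 (Ccl19, Ccl27a and Cxcl2, against 10.4% of genes) and ciliated-like cells for 3 (Cxcl17, Ccl25 and Ccl21a, against 22.2%). The count was 2 each for alveolar type 2-like (Cxcl15 and Cxcl3, 8.47% of genes), peribronchial or myofibroblast-like (Cxcl10 and Ccl2, 9.34%), mesothelial-like (Cxcl9 and Cxcl13, 14.8%) and club or secretory-like cells (Cx3cl1 and Cxcl5, 1.2%). Alveolar-like fibroblasts (Cxcl14, 10.1% of genes) and alveolar type 1-like cells (Cxcl16, 16.2%) were highest for 1 each. As a share of the 21, the counts of alveolar-like, ciliated-like, alveolar type 1-like and mesothelial-like cells lay below the share of all genes. For 14 of the 21 the highest class was at least 2-fold above the next, as it was for 25.6% of all genes. A gene with few UMIs reaches the minimum of 30 mainly through its highest class, so these counts describe the measured members and not the family.

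**Figure D1:**
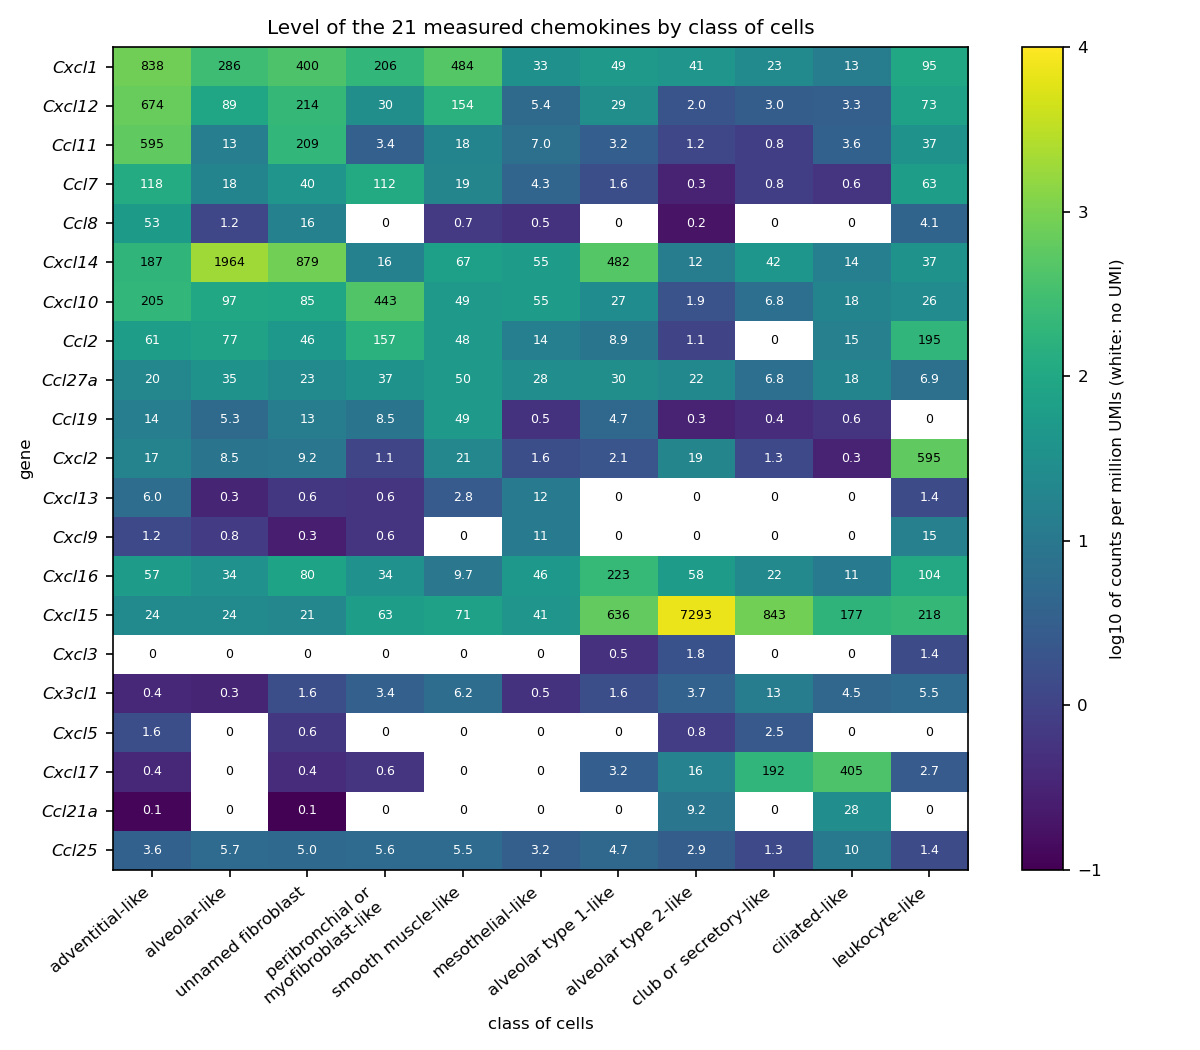
Level of each measured chemokine (rows) in each class of cells (columns), as CPM of UMIs summed over the class, coloured on a log10 scale and printed in each cell of the plot; white marks classes with no UMI. The brightest cell is Cxcl15 in alveolar type 2-like cells at 7293 CPM, and Cxcl1, Cxcl12, Ccl11, Ccl7 and Ccl8 form a block in the adventitial-like column.

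Sequences upstream of 6 members are shown. Cxcl15, Cxcl14 and Cxcl1 had the largest share of the family total in alveolar type 2-like, alveolar-like and adventitial-like cells, and Cxcl12 came second in the last. Of the members at least 2-fold higher in mesenchymal cells with much Ccl2, Cxcl1, Cxcl2 and Cxcl10 are included and Ccl7 and Ccl19 are not. No result below depends on these 6 sequences, which were picked from results of these data. Each is the 250 bases before the RefSeq start on GRCm38.p6, read 5′ to 3′ on the gene's strand, at chr5:90794284-90794533 (plus strand, Cxcl15), chr5:90890995-90891244 (plus, Cxcl1), chr5:90903649-90903898 (plus, Cxcl2), chr5:92348890-92349139 (minus, Cxcl10), chr6:117168285-117168534 (plus, Cxcl12) and chr13:56296552-56296801 (minus, Cxcl14). Capitals mark matches to the motifs searched.
Cxcl15: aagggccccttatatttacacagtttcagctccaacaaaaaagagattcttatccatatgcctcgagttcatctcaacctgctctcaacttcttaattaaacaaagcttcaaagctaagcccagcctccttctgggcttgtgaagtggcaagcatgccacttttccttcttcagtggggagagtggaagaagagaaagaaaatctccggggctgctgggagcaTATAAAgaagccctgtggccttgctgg
Cxcl1: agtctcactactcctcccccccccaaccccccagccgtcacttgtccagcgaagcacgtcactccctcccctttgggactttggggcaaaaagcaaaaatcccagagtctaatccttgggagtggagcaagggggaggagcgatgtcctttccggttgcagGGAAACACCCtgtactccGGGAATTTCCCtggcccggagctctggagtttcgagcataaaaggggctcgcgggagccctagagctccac
Cxcl2: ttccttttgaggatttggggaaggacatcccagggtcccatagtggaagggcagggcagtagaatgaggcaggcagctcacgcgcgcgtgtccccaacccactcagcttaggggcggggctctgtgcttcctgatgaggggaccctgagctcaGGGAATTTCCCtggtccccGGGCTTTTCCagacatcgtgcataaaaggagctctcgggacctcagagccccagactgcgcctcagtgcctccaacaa
Cxcl10: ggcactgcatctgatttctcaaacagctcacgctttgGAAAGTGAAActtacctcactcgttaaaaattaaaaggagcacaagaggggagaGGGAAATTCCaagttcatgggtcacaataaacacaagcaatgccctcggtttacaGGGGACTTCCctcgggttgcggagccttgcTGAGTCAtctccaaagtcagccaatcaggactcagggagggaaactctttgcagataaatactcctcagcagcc
Cxcl12: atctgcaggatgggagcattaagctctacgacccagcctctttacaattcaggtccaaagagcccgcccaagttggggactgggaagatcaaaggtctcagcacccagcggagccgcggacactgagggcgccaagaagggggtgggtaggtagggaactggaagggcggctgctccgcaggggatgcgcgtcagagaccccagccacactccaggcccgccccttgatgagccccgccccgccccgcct
Cxcl14: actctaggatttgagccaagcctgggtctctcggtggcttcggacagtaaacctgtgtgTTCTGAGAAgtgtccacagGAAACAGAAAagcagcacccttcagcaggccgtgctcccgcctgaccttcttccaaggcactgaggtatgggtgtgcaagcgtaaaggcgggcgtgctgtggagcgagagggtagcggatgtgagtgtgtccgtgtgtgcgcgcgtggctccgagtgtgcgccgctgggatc
The motifs were an NF-kB site GGGNNNTTCC, an interferon-stimulated response element GAAANNGAAA, an AP-1 site TGANTCA and a GAS element TTCNNNGAA, each on both strands, and the TATA box TATAAA on the gene's strand. Over 27025 promoters of that length these were present in 4.60%, 3.04%, 6.87%, 7.18% and 8.12%. A promoter was given for 27 of the 39 family symbols, 15 of the 21 measured ones among them. NF-kB letters were found in 7 of the 27 (Ccl1, Ccl9, Ccl20, Cxcl1, Cxcl2, Cxcl3 and Cxcl10), at positions -71 to -62 from the start in Cxcl1, -97 to -88 and -78 to -69 in Cxcl2, and -159 to -150 and -104 to -95 in Cxcl10. The stretch in Cxcl1 and the first in Cxcl2 also match on the other strand, shifted by 1 base, and Cxcl1 has a further match on that strand at -89 to -80. Interferon response letters were found in Cxcl10 (-213 to -204), Cxcl14 (-172 to -163) and Ccl19, an AP-1 match in Cxcl10 (-74 to -68) and Ccl9, and a GAS match in Cxcl14 (-191 to -183) and Ccl17. TATA letters were found in 8 of the 27, at -27 to -22 in Cxcl15, and the Cxcl12 window held none of the 5 motifs. A match is a description of the letters and was not tested as a binding site.

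Some neighbouring members had different sources and others the same. On chromosome 5 (GENCODE M21, mm10) Cxcl15 (90794534 to 90803067) lies next to Cxcl3 (90786103 to 90789600), and both were highest in alveolar type 2-like cells. Cxcl1 (90891241 to 90893115) and Cxcl2 (90903871 to 90905938) lie farther along, and Cxcl1 was highest in adventitial-like fibroblasts. On chromosome 11, Ccl11 (82057823 to 82062955) and Ccl8 (82115185 to 82116799) were both highest in adventitial-like cells. Ccl2 (82035571 to 82037453), in the same row of genes, was highest in peribronchial or myofibroblast-like cells, where 4 cells held 60.8% of its UMIs. Ccl7 (82045712 to 82047525), between Ccl2 and Ccl11, was nearly level in these classes, with 118 CPM in adventitial-like and 112 CPM in peribronchial or myofibroblast-like cells. Ccl12, between Ccl11 and Ccl8, had 24 UMIs in all kept cells, of which 19 were in the leukocyte-like cluster. The 37 placed members lie on 8 chromosomes, 12 of them on chromosome 11 and 10 on chromosome 5.

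Cxcl15, also called lungkine, an airway-secreted attractant of neutrophils, was an alveolar type 2 transcript in nearly every such cell. It had 7293 CPM in alveolar type 2-like cells (7251 to 7335), and 1650 of 1653 cells had a UMI of it (99.8%, 99.5% after each cell was thinned to 2000 UMIs). The next class was club or secretory-like cells at 843 CPM, 8.65-fold lower (8.27 to 9.05), followed by alveolar type 1-like cells at 636 and ciliated-like cells at 177 CPM. Mesenchymal classes held 23.9 to 71.4 CPM and leukocyte-like cells 218 CPM. Per 100 UMIs of Sftpc, the surfactant protein C gene that defines alveolar type 2 cells, Cxcl15 had 3.81 UMIs in alveolar type 2-like cells, 3.93 in alveolar type 1-like, 3.73 in adventitial-like, 3.64 in smooth muscle-like and 3.31 in leukocyte-like cells. Outside the airway classes, then, the proportion of these 2 transcripts stayed between 2.90 and 3.93 in every named class and in leukocyte-like cells. In club or secretory-like cells the proportion was 10.9 (10.4 to 11.4) and in ciliated-like cells 9.03 (8.29 to 9.83), above all of these. Within alveolar type 2-like cells, Cxcl15 was lower in cluster 8 (5400 CPM), led by Areg and class II genes, than in cluster 0 (8312 CPM), a ratio of 0.650.

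The same pair of clusters differed in the opposite direction for Cxcl1 and Cxcl2, which like Cxcl15 act on neutrophils. Of 12 members compared, 5 were at least 2-fold higher in cluster 8, against 2.48% of 10790 genes, or 4 without the cell with most UMIs in each set. At most 0.5-fold was 1, against 1.08% of genes. Cxcl1 had 68.8 CPM in cluster 8 and 26.0 CPM in cluster 0 (2.65-fold, 2.26 to 3.10), and Cxcl2 had 39.6 and 7.78 CPM (5.09-fold, 3.93 to 6.65). Cxcl16 was also higher in cluster 8 (80.8 and 45.3 CPM, 1.78-fold), and Cxcl17 was lower (9.27 and 19.9 CPM, 0.467-fold). Cxcl3, a further neutrophil attractant, was scarce and found mainly in alveolar type 2-like cells, with 29 UMIs in 26 cells (1.81 CPM). It had 1 UMI in alveolar type 1-like cells and none in the other named non-leukocyte classes. Cxcl5, of the same kind, was also scarce, with 6 UMIs in club or secretory-like cells (2.54 CPM), 1.56 CPM in adventitial-like and 0.811 CPM in alveolar type 2-like cells.

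The airway lining was set apart by Cxcl17, a chemokine of mucosal surfaces. Ciliated-like cells had 405 CPM (384 to 427) with a UMI in 83.2% of cells, and club or secretory-like cells had 192 CPM, a ratio of 2.11 (1.89 to 2.35). This ratio depends on the scale, because club or secretory markers summed to 580064 CPM in club or secretory-like cells. That lowers the CPM of every other gene there. Counted by cell, 74 club or secretory-like cells held 454 UMIs of Cxcl17 and 238 ciliated-like cells held 1352, so the 2 classes are not ordered per cell. Alveolar type 2-like cells had 16.2 CPM, alveolar type 1-like cells 3.16 CPM, and no mesenchymal class exceeded 0.565 CPM. The airway classes thus stood well above all others for this gene. Ciliated-like cells also held club cell RNA: all 7 club or secretory markers were above 0 there and summed to 90501 CPM, of which Scgb1a1, the club cell secretoglobin, was 86131 CPM, against 514741 CPM of Scgb1a1 in club or secretory-like cells. Per 100 UMIs of Scgb1a1, Cxcl17 had 0.470 UMIs (0.445 to 0.496) in ciliated-like and 0.0373 (0.0340 to 0.0409) in club or secretory-like cells. Ccl25, which in the gut and thymus acts on Ccr9, was also highest in ciliated-like cells, at 10.5 CPM (35 UMIs in 31 cells), but every other named non-leukocyte class lay between 1.27 and 5.71 CPM. Cx3cl1, the membrane-anchored fractalkine, was highest in club or secretory-like cells at 12.7 CPM (30 UMIs in 27 cells, 8.56 to 18.1), with smooth muscle-like cells at 6.24 and ciliated-like cells at 4.49 CPM. Cluster 19, led by endothelial genes, had more of it than any named class, at 57.4 CPM from 27 UMIs in 14 cells.

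Cxcl16, a membrane-anchored chemokine that acts on Cxcr6-bearing T cells, was highest in alveolar type 1-like cells. It had 223 CPM there (202 to 245) and a UMI in 71.8% of cells. Alveolar type 2-like cells had 57.7 CPM, 3.87-fold lower (3.44 to 4.34), adventitial-like cells 56.8 and the unnamed fibroblasts 79.7 CPM. Leukocyte-like cells, at 104 CPM, lay between these values and the alveolar type 1-like level. No class lacked the gene, and its ratio of mesenchymal to epithelial levels was 0.963.

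Cxcl14 was the leading chemokine of alveolar-like fibroblasts; its receptor is not settled. It had 1964 CPM there (1936 to 1993) with a UMI in 92.6% of cells, 187 CPM in adventitial-like cells, 66.5 in smooth muscle-like and 15.8 in peribronchial or myofibroblast-like cells. The next named class was alveolar type 1-like cells at 482 CPM, 4.07-fold lower (3.81 to 4.36). These cells also held markers of alveolar fibroblasts: all 8 were above 0 and summed to 4221 CPM, against 11858 CPM in alveolar-like fibroblasts and 715 CPM in alveolar type 2-like cells. Per 100 UMIs of Inmt, the leading marker of that list, Cxcl14 had 35.2 UMIs in alveolar type 1-like and 35.1 in alveolar-like cells, while adventitial-like cells had 9.43. Whether alveolar type 1 cells themselves make Cxcl14 was not tested. Within alveolar-like fibroblasts it ranged from 1311 CPM (cluster 7) to 2298 CPM (cluster 1). The unnamed fibroblasts divided sharply, with 1653 CPM in cluster 5, 1385 in cluster 6 and 27.3 in cluster 2.

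Adventitial-like fibroblasts, which lie around vessels and airways, carried most of the other abundant chemokines. Ccl11 had 595 CPM in these cells (583 to 607), with a UMI in 68.1% of them, and no more than 18.0 CPM in any other named non-leukocyte class, a ratio to the next (smooth muscle-like) of 33.0 (22.5 to 50.6). Cxcl12 had 674 CPM (662 to 687) with a UMI in 89.5% of cells, then 154 CPM in smooth muscle-like and 88.7 in alveolar-like cells. Ccl8, a monocyte chemoattractant that in the mouse acts on Ccr8, had 53.3 CPM in adventitial-like cells and 1.19 CPM in alveolar-like cells, a ratio of 45.0 (25 to 90.4). Over the named classes, Ccl8 and Ccl11 were thus the most restricted of these genes, while Cxcl12 was found in the most cells. Cxcl12 was also at 253 CPM in cluster 19, led by endothelial genes, and at 488 CPM in cluster 21, led by cardiac muscle genes. Cluster 21 held Ccl11 as well, with 184 UMIs against 158 of Cxcl12, and the unnamed fibroblasts held 3930 UMIs of Ccl11. Ccl7 had 118 CPM in adventitial-like cells (113 to 124) and 112 CPM in peribronchial or myofibroblast-like cells, and this ratio of 1.05 (0.909 to 1.23) does not order the 2 classes. Cxcl1 had 838 CPM in adventitial-like cells (824 to 853, a UMI in 65.8% of cells), 484 in smooth muscle-like, 286 in alveolar-like and 206 CPM in peribronchial or myofibroblast-like cells, against 13.2 to 49.0 CPM in epithelial classes.

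Between these 2 fibroblast classes, 9 of 15 chemokines with at least 30 UMIs reached a ratio of 2 in favour of adventitial-like cells, compared with 9.91% of 11973 genes. A scarce gene reaches that minimum mainly through the class where it is high, so the counts describe these members and not the family. Only Cxcl14 was at most 0.5-fold (1 of 15, against 11.4% of genes), at 0.0950 (0.0914 to 0.0988). The ratio was 44.2 for Ccl11 (37.0 to 53.1), 7.60 for Cxcl12 (7.08 to 8.17), 6.69 for Ccl7 (5.71 to 7.90) and 2.93 for Cxcl1 (2.81 to 3.05). Cxcl10 (2.11), Cxcl2 (2.04) and Ccl19 (2.66) passed 2-fold by less, and of 11 alternative settings they stayed above it in 4, 5 and 7. Cxcl13, the B cell attractant of lymphoid follicles, had a ratio of 18.6 (6.16 to 91.6), but 56 of the 96 UMIs in adventitial-like cells came from 1 cell, and without the cell with most UMIs in each class the ratio was 11.6. Ccl2 went slightly the other way, at 0.790 (0.717 to 0.871). The median over the 15 chemokines was 2.11, and 0.909 over all genes.

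**Figure D2:**
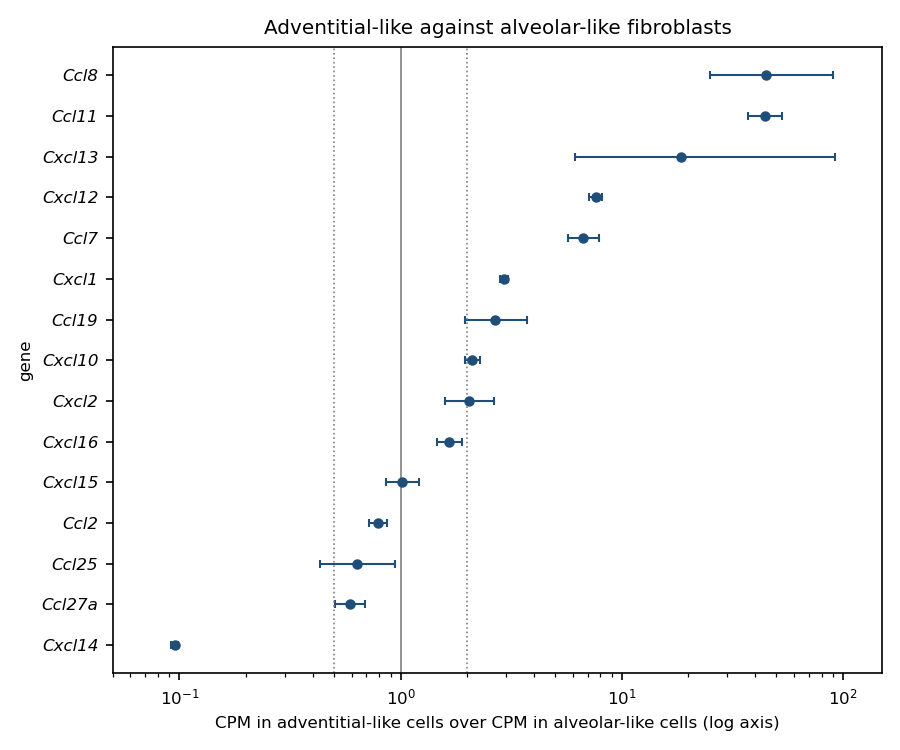
Ratio of CPM in adventitial-like over alveolar-like fibroblasts for the 15 chemokines with at least 30 UMIs over both, on a log axis; points are ratios, bars are 95% intervals of counting error, and dotted lines mark 2-fold and 0.5-fold. Ccl8 (45.0) and Ccl11 (44.2) lie at one end and Cxcl14 (0.0950) at the other.

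The 3 adventitial-like clusters were not alike. Cluster 3 (777 cells), whose leading genes are Penk, Ccl11, Ifi202b, Ccl8 and Mmp3, was above cluster 4 (758 cells) for Ccl8 (6.11-fold, 5.04 to 7.47), Ccl2 (4.52-fold), Ccl7 (4.25-fold), Cxcl1 (3.50-fold) and Ccl11 (2.99-fold). The leading genes were ranked on the same counts, with chemokines included. Of 15 members, 7 were at least 2-fold higher in cluster 3, against 2.1% of 10947 genes, or 6 without the cell with most UMIs in each set. At most 0.5-fold was 1, against 3.65% of genes. Cxcl12 differed less, at 892 and 556 CPM, and Cxcl14 was lower in cluster 3 (86.8 and 324 CPM, 0.267-fold). The clusters were built without these genes, though they were built on genes that can vary with them. Ccl7 was as high in the smaller cluster 13 (188 CPM) as in cluster 3 (180 CPM), while Cxcl10 was lower there (67.6 and 265 CPM). Among the unnamed fibroblasts, cluster 2 had the profile of the adventitial-like clusters at lower levels (Cxcl1 554, Ccl11 435, Cxcl12 303 CPM). Cluster 6, led by Lamc3, Adh7 and Bmp7, had much Cxcl14 with hardly any Ccl11 (1.24 CPM) or Ccl8. Levels in cluster 5 lay between, with Cxcl12 at 256 and Ccl11 at 84.0 CPM.

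**Figure D3:**
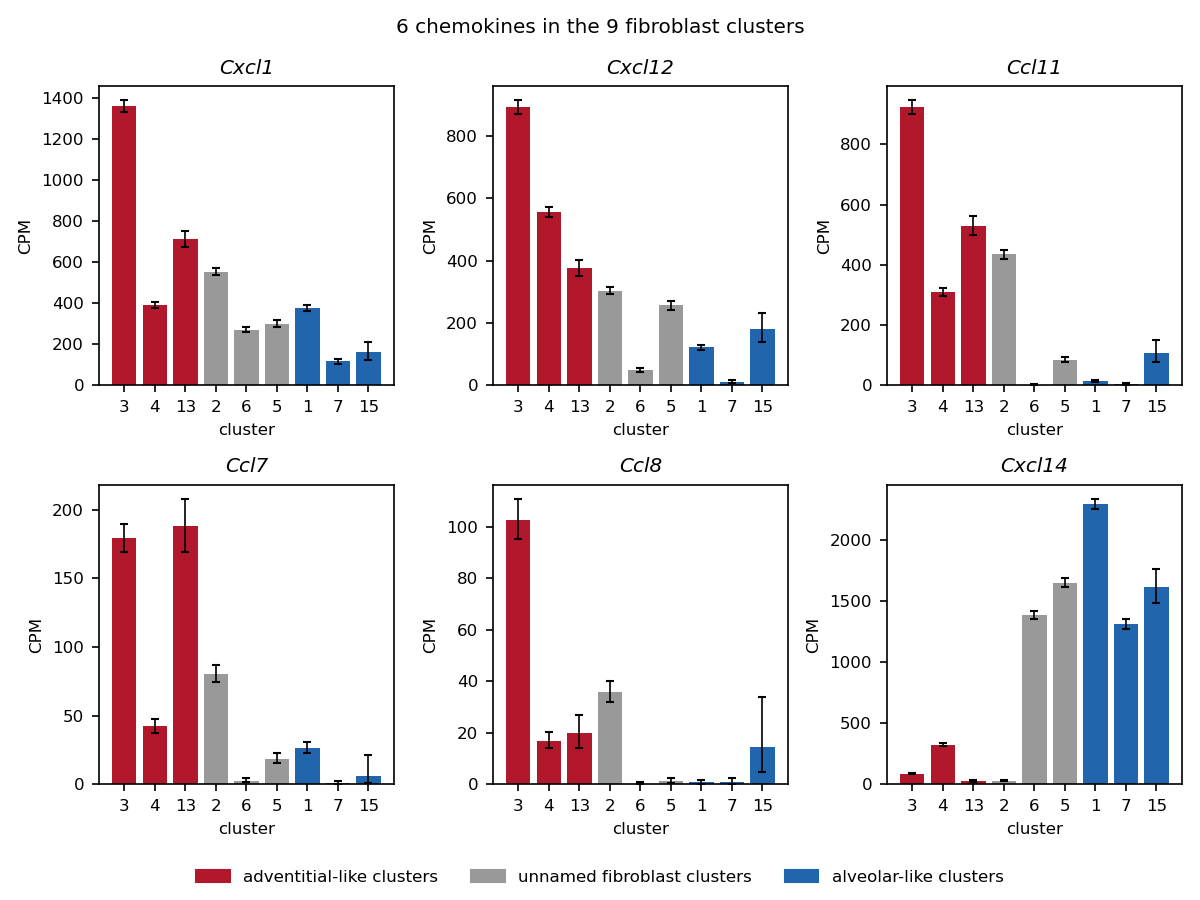
CPM of 6 chemokines in the 9 fibroblast clusters, coloured by class; bars are levels and whiskers 95% intervals of counting error, and each panel has its own axis from 0. Cluster 3 is highest for Cxcl1, Cxcl12, Ccl11 and Ccl8, while Cxcl14 is high in clusters 1, 5, 6, 7 and 15.

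Peribronchial or myofibroblast-like cells were highest for Cxcl10 and Ccl2, but through a minority of cells. Cxcl10 had 443 CPM (413 to 476) from 89 of 427 cells (20.8%), against 205 CPM in adventitial-like cells, of which 407 (23.7%) had a UMI, and 96.9 CPM in alveolar-like cells. Its share of cells was therefore no higher than in adventitial-like cells at the depth measured. After thinning to 2000 UMIs, the shares were 18.4% and 14.8%. Ccl2 had 157 CPM (139 to 177), 2.03-fold the next class (1.76 to 2.33), from 26 of 427 cells, and 4 cells held 60.8% of its UMIs. Without the cell with most UMIs in each class it had 124 CPM and a ratio of 1.73 to the next class. Leukocyte-like cells had 195 CPM of Ccl2. Leukocyte markers in the peribronchial or myofibroblast-like cluster summed to 5.08 CPM, with 4 of 8 at 0, and Ccl2 had 162 CPM there with cells holding a leukocyte marker UMI left out.

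Smooth muscle-like cells had 3 members as their highest class, none of them abundant. Ccl19, which draws Ccr7-bearing dendritic and T cells, had 49.2 CPM (38.4 to 62.1) from 30 of 179 cells, 3.50-fold above the next class (2.64 to 4.59). Ccl27a, known from skin as a ligand of Ccr10, had 49.9 CPM, only 1.34-fold above the next class (0.945 to 1.90). Cxcl2 had 20.8 CPM, from 30 UMIs of which 93.3% were in 2 cells, and without its top cell the highest class was alveolar type 2-like at 16.4 CPM. At a finer clustering (resolution 2), 57 smooth muscle-like cells formed a cluster with pericyte markers (Cox4i2 at 1131 CPM, Notch3 at 492, Higd1b at 385). That cluster had the highest level of Ccl19 (258 CPM, 199 to 329, with a UMI in 25 cells), of Cxcl1 (2314 CPM, 2130 to 2509, in 39 cells) and of Ccl2 (254 CPM, in 8 cells). The level of Cxcl1 there exceeded that of any class at the main resolution. These 57 cells held 65 of the 71 Ccl19 UMIs of the smooth muscle-like class, 583 of its 699 of Cxcl1 and 23 of its 30 of Cxcl2. Of Ccl27a they held 7 of 72. The level of Ccl19 given for smooth muscle-like cells therefore came mostly from the cells with pericyte markers.

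Mesothelial-like cells, which cover the lung surface, had the lowest family total and were highest for 2 scarce members. Cxcl9, a Cxcr3 ligand induced by interferon gamma, had 11.3 CPM, from 21 UMIs in 5 cells of which 1 held 14. Cxcl13 had 11.8 CPM from 22 UMIs in 16 cells, so it was spread over more cells. Neither had a UMI in any epithelial class, so against a floor of 3 UMIs over the epithelial cells they were at least 8.65-fold higher (Cxcl9) and at least 22.1-fold higher (Cxcl13) in mesenchymal cells. Ccl21a, a Ccr7 ligand of lymphatic vessels, counted as highest in ciliated-like cells only because 1 cell there had 93 UMIs. A further cell, in an alveolar type 2-like cluster, had 147, and all other cells outside the leukocyte-like cluster held 5 UMIs together.

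Cells with a UMI were plotted against the share of UMIs held by the top 1% of cells. For a member with few UMIs both values depend on that number, so the plot cannot tell a scarce member from one concentrated in few cells. Cxcl15, Cxcl14, Cxcl12, Cxcl17, Cxcl16, Ccl11 and Cxcl1 had a UMI in 65.8% or more of the cells of their highest class, and the top 1% of cells held at most 11.2% of the UMIs. For Ccl7 (13.3% of cells), the top 17 cells held 34.8%, and for Ccl8 (20.2%) 22.6%. Ccl2, Cxcl2, Cxcl3, Cxcl9 and Ccl21a had a UMI in 6.09% of cells or fewer. Of these, Cxcl3 was scarce and not concentrated, with 29 UMIs in 26 cells and at most 2 in any cell. Over 2000-UMI cells the share of cells with a UMI put 18 of the 21 members highest in the same class as CPM did, the exceptions being Cxcl2, Ccl25 and Cx3cl1.

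**Figure D4:**
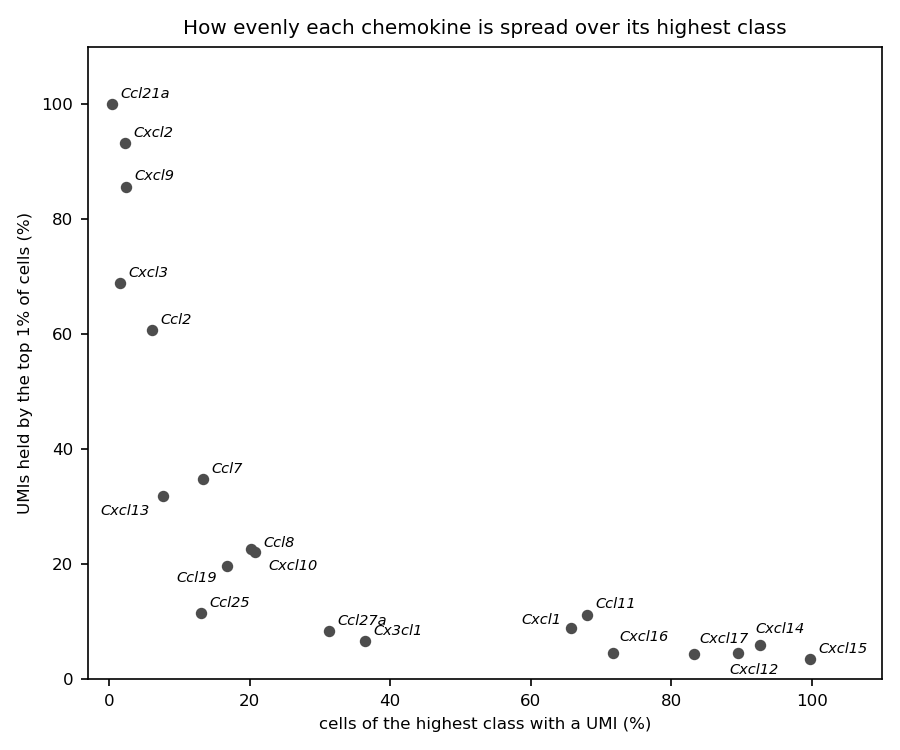
For each measured chemokine except Cxcl5 (6 UMIs), the percent of cells of its highest class with a UMI (horizontal axis) against the percent of its UMIs there that the top 1% of cells held (vertical axis). Cxcl15 lies at 99.8% of cells and Ccl2, Cxcl3, Cxcl9, Cxcl2 and Ccl21a lie at the left, above 60%.

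Summed over all mesenchymal classes (6451 cells) and all epithelial classes (2174 cells), 12 of 22 members with at least 30 UMIs were at least 2-fold higher in mesenchymal cells, against 25.6% of all genes. A gene with few UMIs reaches that minimum mainly through the side where it is high. Cxcl9 and Cxcl13, with no epithelial UMI, reached it through mesenchymal cells alone. The counts of both sides therefore describe these members and not the family. At most 0.5-fold were 5 of 22 (Cxcl17, Cxcl15, Ccl21a, Cxcl3 and Cx3cl1), a share near the 19.4% of all genes. Ccl21a is among them only through 2 cells, with 147 and 93 of its 241 epithelial UMIs, so it is not placed on either side. The widest ratios to the mesenchymal side were those of Ccl8 (186, 63.4 to 902), Ccl11 (168, 123 to 236), Ccl7 (122, 69.7 to 236) and Cxcl12 (72.9, 60.1 to 89.1). Cxcl10 (20.5), Ccl19 (17.3), Ccl2 (16.8), Cxcl14 (14.5) and Cxcl1 (14) followed. On the epithelial side Cxcl17 was at 0.00348 and Cxcl15 at 0.00516. Ccl25, Ccl27a, Cxcl2, Cxcl5 and Cxcl16 lay between 0.873 and 1.28, so these 5 were not weighted to either side.

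Members known from inflammation occurred together in few cells. Among mesenchymal cells, 84 had 10 or more UMIs of Ccl2 and held 75.0% of the mesenchymal Ccl2 UMIs, while 395 had any, and 48 cells with 5 to 9 and 29 with 10 to 14 lay on either side of that limit. Each was set beside 5 cells of its cluster with no Ccl2 UMI and the nearest total count (median UMIs 8241 and 8260). Ccl7 had 600.1 CPM in the Ccl2-high cells and 66.9 CPM in the matched cells (8.97-fold, 7.69 to 10.5). Cxcl2 was 8.06-fold higher (5.20 to 12.7), Cxcl10 3.12-fold (2.70 to 3.59), Cxcl1 2.84-fold (2.65 to 3.04) and Ccl19 2.76-fold (1.60 to 4.66). These were 5 of 12 members compared, against 1.64% of 9329 genes. Without the cell with most UMIs in each set they were 5 of 12 as well, with Ccl7 at 7.27-fold and Cxcl2 at 6.23-fold. Ccl11 (1.90) and Cxcl16 (1.82) were higher by less than 2-fold, and the values of Cxcl12 (0.859), Cxcl14 (1.02), Ccl8 (1.15) and Ccl27a (1.16) lay closer to 1. Cxcl15, at 0.446 (0.198 to 0.880, from 9 UMIs), was the 1 member at 0.5 or less, where 4.29% of genes were. Of the NF-kB list, 6 of 15 genes were at least 2-fold higher, among them the feedback inhibitor Tnfaip3 (2.96) and the subunits Nfkb2 (2.87) and Nfkb1 (2.56), with a list median of 1.71 and 0.990 over all genes. Of the interferon list 3 of 16 were, and of the immediate early list 0 of 18, with a median of 1.08.

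Cells with 10 or more Cxcl10 UMIs also had more Cxcl2, Ccl2 and Ccl7 than matched cells, and more of several interferon-inducible genes. There were 225 such mesenchymal cells with 65.8% of the mesenchymal Cxcl10 UMIs, 110 of them adventitial-like, 32 peribronchial or myofibroblast-like and 29 alveolar-like, and none among the 1653 alveolar type 2-like cells. Beside matched cells without the transcript, Cxcl2 was 5-fold higher (3.85 to 6.48), Ccl2 3.45-fold (3.02 to 3.94), Ccl7 3.18-fold (2.82 to 3.59) and Ccl19 2.02-fold. These were 4 of 14, against 0.711% of 10971 genes, and 3 of 14 without the cell with most UMIs in each set (Ccl19 then 1.88-fold). Cxcl1 was 1.88-fold higher (1136 and 604 CPM), and Cxcl12 (1.01) and Cxcl14 (0.951) were level. Here 6 of 17 interferon genes were at least 2-fold higher, led by Ifit1 (4.24), Ifit3 (3.47) and Isg15 (2.90), with a list median of 1.79, while 1 of 16 NF-kB genes (Tnfaip3, 2.04) and 0 of 19 immediate early genes were. Tnfaip3, Ifit3, Isg15 and Gbp2 were at least 2-fold higher in both sets. The difference between the 2 sets of cells in these lists was not tested. Taking 5 or 20 UMIs as the limit gave 4 or 6 of 12 chemokines for Ccl2, and 4 of 15 or 6 of 12 for Cxcl10.

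**Figure D5:**
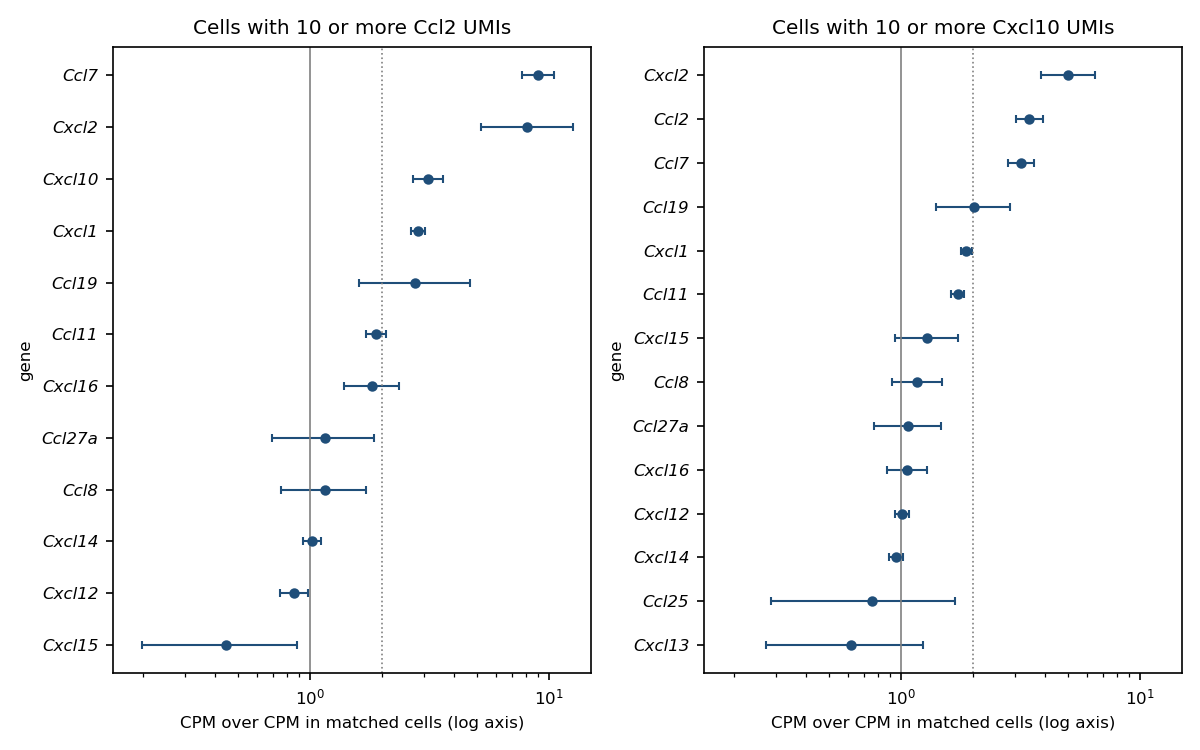
Ratio of CPM in mesenchymal cells with 10 or more Ccl2 UMIs (left, 84 cells) or Cxcl10 UMIs (right, 225 cells) over matched cells of the same cluster without one, on a log axis; points are ratios and bars 95% intervals of counting error. Ccl7 and Cxcl2 lie farthest right in the left panel (8.97 and 8.06), and Cxcl12 and Cxcl14 lie near 1 in both.

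Immediate early genes, such as Fos and Egr1, rise within minutes of many stimuli, and some chemokines moved with them. In adventitial-like cells, the 571 cells with the highest share of immediate early UMIs (median 4.98% of UMIs) were set beside the 571 with the lowest (2.33%). Of 15 chemokines, 3 were at least 2-fold higher in the former, against 1.52% of 10569 genes: Cxcl2 (32.0 and 4.67 CPM, 6.85-fold, 4.50 to 10.8), Cxcl1 (1065 and 482 CPM, 2.21-fold) and Cxcl13 (3.62-fold). For Cxcl13, 56 of the 63 UMIs in the higher set came from 1 cell, and without the cell with most UMIs in each set its ratio was 0.502 (0.175 to 1.29) and the count was 2 of 15. Cxcl10 was 1.86-fold, Ccl7 1.78-fold and Ccl2 1.61-fold higher, while Cxcl12 (0.977), Ccl8 (1.03) and Cxcl14 (1.15) were near 1. In alveolar-like cells 1 of 13 was at least 2-fold higher (Ccl11, 3.19-fold), against 0.931% of genes, and 2 were at most 0.5-fold, against 0.706%: Cxcl2 at 0.285 and Ccl7 at 0.340. Without the top cells Ccl7 was at 0.204 (0.0774 to 0.459) and Cxcl2 at 0.408 (0.0959 to 1.35), an interval that no longer gives a direction. Cxcl1 was 1.14-fold there. In peribronchial or myofibroblast-like cells Cxcl1 was 3.36-fold (2.46 to 4.64) and Cxcl10 1.90-fold. There 1 of 8 was at least 2-fold higher (2.3% of genes) and 2 at most 0.5-fold (4.62%), or 1 without the top cells. In alveolar type 2-like cells Cxcl2 was 2.31-fold (1.65 to 3.28). There 1 of 10 was at least 2-fold higher (1.45% of genes) and 1 at most 0.5-fold (0.705%), or 0 without the top cells. In the unnamed fibroblasts 1 of 14 was at least 2-fold higher (0.818% of genes) and 1 at most 0.5-fold (0.536%). By class, immediate early genes took 5.10% of UMIs in peribronchial or myofibroblast-like cells and 0.580% in club or secretory-like cells. The part of cell handling in the levels of Cxcl1 and Cxcl2 was not tested.

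By the reporter, no chemokine differed 2-fold in adventitial-like cells, and 2 did in each of 2 other classes. Among adventitial-like cells, 572 with high Egfp were paired by cluster and depth with 572 of low Egfp, and 0 of 14 chemokines differed by 2-fold, as 0.961% of 10614 genes did. Ccl7 was higher in the Egfp-high cells (147 and 99.2 CPM, 1.48-fold, 1.32 to 1.65), and Cxcl10 (0.744, 0.681 to 0.813) and Cxcl1 (0.826, 0.791 to 0.861) were lower. Cxcl12 (0.983) and Ccl8 (0.936) were level. In alveolar-like cells 2 of 12 chemokines were 2-fold apart, against 0.897% of genes: Cxcl10 at 0.469 (0.383 to 0.571) in Egfp-high cells and Cxcl2 at 3.22 (1.81 to 6.04). Without the cell with most UMIs in each set Cxcl2 was at 2.08 (0.939 to 4.95) and Cxcl10 at 0.443. In 168 pairs of peribronchial or myofibroblast-like cells 2 of 8 were, against 3.82% of genes: Ccl2 at 0.134 (24.1 and 179 CPM) and Ccl7 at 0.161 (36.2 and 225 CPM). Few cells carried these UMIs (4 cells of the class held most Ccl2), and without the top cell of each set the ratios were 0.0791 and 0.0916. In the unnamed fibroblasts 0 of 14 differed by 2-fold (0.938% of genes), and in mesothelial-like cells 1 of 6 did (Cxcl1, 3.26% of genes) and 0 without the top cells. Depth was not level in the 625 pairs of unnamed fibroblasts, at a median of 10476 UMIs in Egfp-high and 7806 in Egfp-low cells. Gli1 itself did not separate the adventitial-like sets, at 27.2 and 27.7 CPM.

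The receptors of these ligands were mostly missing from the same cells. Of 18 conventional chemokine receptors, 2 (Cxcr2 and Cxcr4) reached 30 UMIs over the named non-leukocyte classes, where 14172 of all 31055 features did. Cxcr4, the receptor of Cxcl12, had 7.34 CPM in peribronchial or myofibroblast-like cells and 1.19 CPM in adventitial-like cells, and Cxcr2, the receptor of Cxcl1 and Cxcl2, had 2.80 CPM in alveolar-like cells. In leukocyte-like cells Ccr7 reached 429 CPM, Cxcr2 72.7 and Cxcr4 57.6 CPM. Of 5 atypical receptors, which bind chemokines without the usual signalling, 4 were measured and all 4 were highest in a mesenchymal class, as 52% of all genes were. Ackr3, which binds and removes Cxcl12, had 181 CPM in adventitial-like cells (175 to 188) and 3.56 CPM in alveolar-like cells, and so was high in the class with most Cxcl12. Ccrl2 was the reverse, at 13.5 and 58.2 CPM. Of 19 receptors for cytokines that induce chemokines, 13 were highest in a mesenchymal and 6 in an epithelial class, against 52% and 48% of all genes. Between adventitial-like and alveolar-like cells 4 of the 19 reached a ratio of 2, against 9.91% of genes, and 2 were at 0.5 or less, a share near the 11.4% of genes (list median 1.06). The shared receptor chain Il6st had 270.1 and 123 CPM, and the interferon gamma receptor chain Ifngr1 165 and 405 CPM. Of the 16 NF-kB genes 0 differed by 2-fold between these classes (median 1.05), where 9.91% of genes were 2-fold higher and 11.4% at 0.5 or less.

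The remaining 23 rows fell under the minimum. For 9 of them the leukocyte-like cluster was the main source: Ccl6 (1264 UMIs there, 97.6% of all), Ccl5 (524, 95.6%), Ccl4 (475, 99.8%), Ccl3 (333, 98.5%), Ccl22 (85, 97.7%), Ccl17 (64, 74.4%), Ccl9 (30, 79.0%), Ccl12 (19, 79.2%) and Ccl24 (3 of 3). These are chemokines of macrophages, dendritic cells and lymphocytes. Cxcl2 was shared, since the leukocyte-like cells had 595 CPM of it and 32.1% of its UMIs. Ccl20, which draws Ccr6-bearing cells to mucosa, had 10 UMIs in club or secretory-like cells and 9 in 1 alveolar type 2-like cell. Ccl28 (8 UMIs), Ccl27b (1) and Ccl1 (none in kept cells, 26 in all barcodes) were too few to place. No UMI of Xcl1, Ccl26 or Ccl21b was found in any barcode, nor of the 7 scaffold rows, which allows up to 3 UMIs in the 85746975 of the whole matrix. Counts of Ccl19, Ccl21a and Ccl27a are uncertain, because near-identical copies of these genes exist and the authors' counting could divide or drop their reads. Several members also overlap a gene on the other strand (Ccl2, Ccl19, Ccl25, Ccl27a, Cxcl10, Cxcl16 and Cxcl17), and no source used here states whether counting used strand.

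The authors' deposited table of 17 clusters, made with their own clustering, was compared by the cluster in which each of the 21 measured members had its highest mean count. In the authors' deposited table, for 9 members that cluster was also the highest for 1 marker of the class named above for the member, and for 3 (Ccl19, Cxcl2 and Cxcl10) it was a cluster highest for several markers, that of the class among them. For the other 9 the authors' deposited table did not give the same source: the cluster led for a marker of another class for Ccl21a, Cxcl5 and Cx3cl1, and for none of the markers looked up for Ccl2, Ccl7, Ccl25, Ccl27a, Cxcl3 and Cxcl14. In the authors' deposited table, the cluster with the highest mean count of Cxcl15 (51.1 per cell) was also the highest for Sftpc, and that for Cxcl17 (2.94) the highest for Tppp3, a ciliated cell marker. Cxcl1 (5.67), Cxcl12 (4.67), Ccl11 (4.66) and Ccl8 (0.481) had their highest mean in the authors' deposited table in the cluster highest for Pi16, an adventitial marker, Cxcl16 (1.62) in that highest for Ager, an alveolar type 1 marker, and Cxcl9 (0.0688) and Cxcl13 (0.0819) in that highest for Msln, a mesothelial marker. Cxcl14 had 18.1 per cell in 1 cluster of the authors' deposited table and 13.8 in the cluster highest for Inmt. The cluster of the authors' deposited table that was highest for Ccl3, Ccl4, Ccl5 and Ccl6 was highest for Ptprc, Pecam1, Myh11 and Hhip at once, so leukocytes, endothelium and muscle are not separated there.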

How the data were processed

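RNA of sorted lung cells was counted per cell by droplet 3′ sequencing. The matrix that the authors deposited gives UMI counts per gene and barcode, not normalized (85746975 UMIs, 11118 barcodes). It was made with Cell Ranger 3.0.0 on mm10, per the submitters' processing notes. The authors' deposited cluster table gives a mean count per cell, used here as a score of unknown scaling, and a log2 fold change whose comparison set no source used here states. The labels give differing strains and kit versions, so neither is stated.

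Of the barcodes, 9391 had 500 or more genes and no more than 10% mitochondrial UMIs, and 458 doublets (4.88%) called by Scrublet were removed. Counts were scaled to 10000 per cell, 2000 variable genes and 30 components were used, and Leiden clustering (resolution 1, 15 neighbours, scanpy 1.11.5, leidenalg 0.10.2, Python 3.11.15) ran without members, receptors, mitochondrial, ribosomal and reporter genes. Clusters were named X-like from marker lists. A gap of 0.3 between fibroblast scores and a cardiac list were added after the data were examined. UMIs were summed per class. A class with no UMI was set to a floor of 3 UMIs, and Egfp-high and Egfp-low cells had at least 1000 and under 200 CPM. The code was tested on simulated data.

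Every member is accounted for. Those with 30 or more UMIs in named non-leukocyte classes are described with values, the others by count, and lists by counts with values for 2 or 3 members. The rule for cells high in Ccl2 or Cxcl10, the promoter motifs and several alternatives were chosen after the data were examined. Members and lists were chosen with earlier results of these data known. Gene positions are from GENCODE M21, and promoters from RefSeq on GRCm38.p6.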

Additional observations from a re-analysis of the deposited data

How the results depend on the processing

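No paired analysis was possible because the matrix pools all cells as 1 group, and no replicate could be left out. Of the 21 measured members, 11 kept their highest class in all 12 alternatives tried and 10 did not. Ccl7 and Cxcl2 kept theirs in 7 each, Ccl25 in 10, and Ccl2, Ccl19, Ccl21a, Cxcl1, Cxcl5, Cxcl13 and Cx3cl1 in 11 each. Resolution 2 changed 7, where a pericyte-like cluster became the highest for Ccl19, Cxcl1, Cxcl2, Cxcl13, Ccl25 and Ccl2. For Cxcl13 and Ccl25 this rested on 3 UMIs each (11.9 CPM, 2.46 to 34.8), and for Cxcl2 on 23 UMIs of which 1 cell held 21. The count of members at most 0.5-fold in adventitial-like cells (1) was 3 with a looser cell filter and 2 at a minimum of 10 UMIs. The count at least 2-fold higher there (9) was 5 at 3-fold. The count apart by the reporter (0) was 1 with doublets kept, 1 at resolution 0.5 and 2 at a minimum of 10 UMIs. The cause of these changes was not tested, apart from the stricter fold and the lower minimum, which change the count by construction. Over the value reported and 11 alternatives, the adventitial over alveolar ratio of Ccl11 ran from 11.4 to 57.2, of Ccl8 from 8.77 to 111, of Cxcl12 from 3.06 to 8.72, of Cxcl1 from 2.24 to 3.77 and of Cxcl14 from 0.0380 to 0.324. Depth limits members under 30 UMIs, whose class cannot be given.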
